A study of Mus musculus with 12 samples.

Results

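Among the mesenchymal cells of the neonatal mouse utricle, 112 cells carried Lum at 100 CPM or more (CPM, the count of a gene scaled to a fixed total of reads per cell), of 246 mesenchymal cells and of 1155 cells in the whole dataset. A cell was taken as mesenchymal when it came from the non-epithelial dissection, passed the limits on reads, genes and mitochondrial share, held at least 3 of the 5 genes Otor, Dcn, Col1a2, Coch and Car3 at 100 CPM, and stayed under 1000 CPM for the pericyte gene Rgs5. Lum then divided these cells into 112 Lum-positive cells and 134 other mesenchymal cells. The division was made on the measured Lum level, so the Lum values below are a description of how the cells were chosen.

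The cells came from utricles of mice at postnatal days 4 and 6 (P4 and P6), dissected with thermolysin into an epithelial and a non-epithelial part and sorted singly into plates for Smart-seq2, a full-length single-cell RNA method. According to the study's methods the non-epithelial cells came from wild-type FVB mice and from Pou4f3 DTR/+ mice, whose transgene was never activated, and no treatment was given. Several mice were pooled for each collection, and the deposited tables name only the age, the dissection and the sequencing batch of a cell, not its animal, genotype or pool. No sample of independent animals could therefore be formed, no test was made, and values are set side by side for the 4 sequencing batches. P4 cells stood in batch 5 alone and P6 cells in batches 2, 4 and 6, so age and batch cannot be told apart.

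Lumican, the protein made from Lum, is a small leucine-rich proteoglycan that binds collagen fibrils and is best known from the cornea, tendon and skin. The mesenchyme beneath the vestibular epithelium derives from the periotic mesenchyme, which builds the connective tissue, fibrocytes and capsule of the inner ear and exchanges Wnt, hedgehog, FGF and BMP signals with the epithelium. Dmp1, a phosphoprotein of mineralising matrix, and Hhip, a secreted and membrane-bound decoy that binds hedgehog ligands and is itself a hedgehog target gene, were given with Lum as markers of these cells.

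Lum lies on chromosome 10 at 97565501 to 97572703 (GRCm38.p6), in a row of small leucine-rich proteoglycan genes with Dcn (97479500 to 97518163), Kera (97606962 to 97613688) and Epyc (97644068 to 97681908). Of the genes described below, Igf1 also lies on chromosome 10 (87858265 to 87937047), Gcg on chromosome 2 (62474530 to 62483653), Dmp1 on chromosome 5 (104197575 to 104214102), Hhip on chromosome 8 (79965850 to 80058060) and Gpc3 on the X chromosome (52272426 to 52613974). The 250 bases before the annotated start are shown for Gcg, Dmp1 and Gpc3, which were higher in the Lum-positive cells, and for Wif1, which was lower, to show how unlike these starts are. Capitals mark TATAAA or its reverse complement TTTATA.
Gcg, chr2:62483654-62483903, minus strand: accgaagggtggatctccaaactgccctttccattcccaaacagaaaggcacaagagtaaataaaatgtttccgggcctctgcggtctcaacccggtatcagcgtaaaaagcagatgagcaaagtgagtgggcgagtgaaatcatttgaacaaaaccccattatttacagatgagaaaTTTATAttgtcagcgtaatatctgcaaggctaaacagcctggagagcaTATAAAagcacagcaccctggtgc
Dmp1, first of 2 starts, chr5:104197325-104197574, plus strand: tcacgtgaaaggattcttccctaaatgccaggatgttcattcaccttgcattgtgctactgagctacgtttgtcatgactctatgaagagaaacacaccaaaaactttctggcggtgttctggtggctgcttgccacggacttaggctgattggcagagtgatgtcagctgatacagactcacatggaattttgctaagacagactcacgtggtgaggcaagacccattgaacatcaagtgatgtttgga
Gpc3, chrX:52613975-52614224, minus strand: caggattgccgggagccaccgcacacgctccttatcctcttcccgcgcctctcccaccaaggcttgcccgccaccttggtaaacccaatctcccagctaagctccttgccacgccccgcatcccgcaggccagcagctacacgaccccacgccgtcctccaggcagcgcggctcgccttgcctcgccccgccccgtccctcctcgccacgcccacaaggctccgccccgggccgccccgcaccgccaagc
Wif1, chr10:121033754-121034003, plus strand: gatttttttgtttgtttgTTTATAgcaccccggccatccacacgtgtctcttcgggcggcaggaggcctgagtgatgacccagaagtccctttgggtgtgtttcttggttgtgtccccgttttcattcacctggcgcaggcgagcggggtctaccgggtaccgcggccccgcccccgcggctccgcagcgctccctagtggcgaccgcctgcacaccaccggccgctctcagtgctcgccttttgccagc

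The Gcg window held TATAAA from 24 to 19 bases before the start, and TTTATA from 72 to 67 bases before it. These letters, on either strand, stood in 12.4% of 32851 such windows. The Gcg and Dmp1 windows were 44.8% and 46% G or C and held 7 and 5 CpG, whereas those of Gpc3 and Wif1 were 71.6% and 62.8% G or C and held 25 and 21 CpG. The median over all windows was 52.4% with 6 CpG. Of the other starts searched, that of Igf1, also higher in the Lum-positive cells, held TCAAAG on the reverse strand from 186 to 181 bases before the start. Neither TCAAAG, the core of a TCF/LEF site (13.8% of windows, both strands), nor GACCACCCA, a GLI site (0.225% of windows, both strands), was in any of these 4 windows. The windows are from RefSeq, in which no window for Lum or Dcn was found.

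Lum-positive cells made up 45.5% of the mesenchymal cells (95% Clopper-Pearson interval 39.2% to 52.0%, counting error only). The share was 40.6% (31.1% to 50.5%) in the P4 batch, with 43 of 106 cells. It was 54.3% (39.0% to 69.1%) in batch 2 with 25 of 46 cells, 41.7% (22.1% to 63.4%) in batch 4 with 10 of 24 cells, and 48.6% (36.4% to 60.8%) in batch 6 with 34 of 70 cells. The 4 intervals overlapped. At the limit itself there was a gap, since 129 of the 134 other cells had no Lum count, the highest of the other 5 was at 48.5 CPM, and the lowest Lum-positive cells were at 129, 130 and 201 CPM.

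Within the Lum-positive cells, Lum ranged from 129 to 24428 CPM, with a median of 1025 CPM. Of these cells, 57 were at 1000 CPM or more and 13 at 10000 CPM or more. The mean was 1352 CPM in the P4 batch, 8482 CPM in batch 2, 2573 CPM in batch 4 and 2989.8 CPM in batch 6. Each P6 batch lay above the P4 batch, and batch 2 lay above the other P6 batches. Outside the mesenchymal cells Lum had no count in 32 Rgs5-high non-epithelial cells and 1 read in 97 remaining non-epithelial cells, and it reached 100 CPM in 2 of 632 cells of the epithelial dissection.

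**Figure D1:**
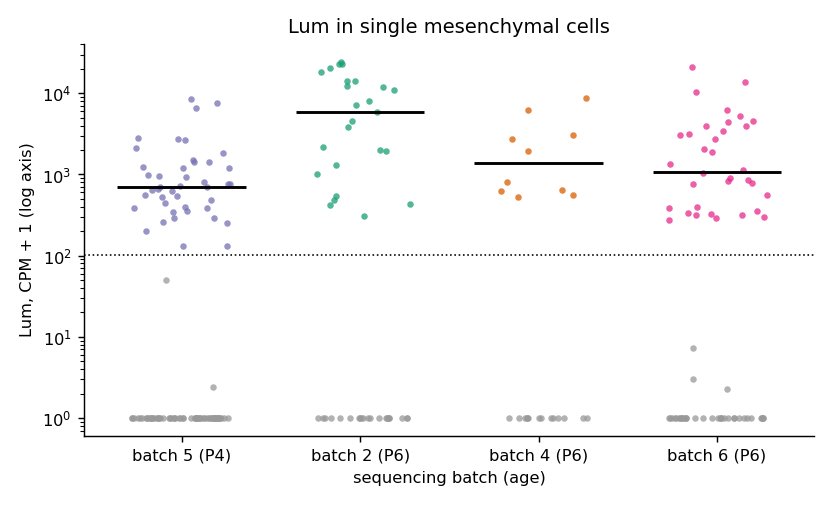
Lum in each of the 246 mesenchymal cells, as CPM + 1 on a log axis, by sequencing batch. Coloured points are Lum-positive cells, grey points the other mesenchymal cells, the dotted line the limit of 100 CPM and the black bars the median of the Lum-positive cells of a batch. Few cells lie between 0 and the limit, and batch 2 has the highest median, at 5841 CPM.

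The mesenchymal genes of the rule were present throughout. Col1a2, a fibrillar collagen chain, and Car3, a carbonic anhydrase, were at 100 CPM or more in 112 of 112 Lum-positive cells, Otor, the secreted otoraplin of the inner ear, in 109, Dcn, the proteoglycan decorin, in 108 and Coch, the matrix protein cochlin, in 83. In the other cells these counts were 134 for Col1a2, 121 for Car3, 134 for Otor, 110 for Dcn and 126 for Coch of 134. Median depth was 657893 reads (171615 to 1706056) and 2891.5 genes in the Lum-positive cells, and 616184 reads and 2726 genes in the other cells. The defining markers of other cell types were scarce. No hair cell, endothelial, macrophage, melanocyte, osteoblast or red blood cell list had 2 or more markers at 100 CPM in any mesenchymal cell, and the lists of roof cells, epithelium, pericytes, Schwann cells and glia did so in at most 3 Lum-positive cells each. Glial markers did so in 3 Lum-positive and 15 other cells, through Ednrb and Fabp7, which had means of 31.3 and 90.2 CPM in the Lum-positive cells and 62.2 and 173 CPM in the others, while the defining glial gene Cdh19 had no count in either group. In total 7 Lum-positive and 19 other cells held such a pair of foreign markers. Of the epithelial genes Cdh1, a cadherin, was lower, at 21.6 against 55.4 CPM. Chondrocyte markers, which the periotic mesenchyme shares, reached 100 CPM for 2 or more genes in 32 cells of either group, with summed means of 4637 and 7059.6 CPM.

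The given markers Dmp1 and Hhip were found in a minority of the cells. Dmp1 reached 100 CPM in 31 of 112 Lum-positive cells (27.7%, interval 19.6% to 36.9%) and 9 of 134 other cells (6.72%, 3.12% to 12.4%). Hhip did so in 19 Lum-positive cells (17.0%, 10.5% to 25.2%) and 2 other cells (1.49%, 0.181% to 5.29%). At least 1 of Gcg, Dmp1 and Hhip reached 100 CPM in 44 Lum-positive cells (39.3%) and 10 other cells (7.46%), and 68 Lum-positive cells had none of the 3. The cells are therefore called by Lum alone.

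To find what went with Lum, the Lum-positive cells were compared with the other mesenchymal cells over 8224 genes that had a count in at least 10% of the cells of either group. A gene was counted as higher or lower when its mean CPM + 1 differed at least 2-fold and the sign was the same within each of the 4 batches. By this rule 184 genes were higher (2.24% of the genes) and 187 were lower (2.27%), and the median log2 difference over all genes was -0.01. The fold alone, without the sign in each batch, would have given 432 higher (5.25%) and 427 lower (5.19%) genes. Log2 differences are given as Lum-positive minus other, on the scale of mean CPM + 1, over all cells together. The value after ± is the SD of the differences within the 4 batches. The difference over all cells is not the mean of the batch differences and can lie away from most of them. Batch 4 had only 10 and 14 cells in these groups, so its means were the least certain. Counted genes are called higher or lower below, with values for the others. Counts in a gene list are to be read against the shares over all genes, 2.24% higher and 2.27% lower. At these shares a list with 1 counted gene or none gives no result about the list.

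Gcg, which encodes proglucagon, the precursor of glucagon and glucagon-like peptides, was found in Lum-positive cells alone among the mesenchymal cells. The mean of Gcg in the Lum-positive cells was 174 CPM in the P4 batch and 494, 179 and 149 CPM in batches 2, 4 and 6, and no read fell on it in the other cells of any batch. It reached 100 CPM in 28 of 112 Lum-positive cells (25%, 17.3% to 34.1%), namely 6 of 43 in the P4 batch, 13 of 25 in batch 2, 2 of 10 in batch 4 and 7 of 34 in batch 6. None of the 134 other cells had a count, which allows a share of cells with a count of up to 2.24% (3 of 134). Outside the mesenchymal cells it had 1 read in the 32 Rgs5-high cells and none in the 97 remaining non-epithelial cells or the 632 epithelial cells. Glp1r, which encodes the receptor of glucagon-like peptide, had no count in any mesenchymal cell.

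Dmp1 was higher, with means of 175 CPM in the P4 batch and 989.7, 386 and 341 CPM in batches 2, 4 and 6 of the Lum-positive cells. The other cells had 53.7 CPM in the P4 batch, 129 CPM in batch 2, none in batch 4 and 62.4 CPM in batch 6. In each batch the mean of the Lum-positive cells was the higher one, and the difference for Dmp1 was 2.75 over all cells. The other genes of mineralised tissue did not follow, since of 5 measured genes Dmp1 alone was counted (median 0.17), Spp1, a secreted matrix phosphoprotein, differed by -0.16, and the osteoblast genes Bglap, Bglap2 and Ibsp had no count in the Lum-positive cells.

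Hhip was higher at 34.0 CPM in the P4 batch and 210.1, 168 and 87.7 CPM in batches 2, 4 and 6, against 0, 17.4, 0 and 1.98 CPM in the other cells of the same batches. Of 9 measured hedgehog genes 2 were higher, Hhip and Ptch1, and none was lower (median -0.02). Ptch1, the hedgehog receptor and a target of the pathway, had means of 76.6, 171, 136 and 75.3 CPM in batches 5, 2, 4 and 6 of the Lum-positive cells and 64.1, 31.1, 40.3 and 28.1 CPM in the others, a difference of 1.12 ± 0.90 (SD, n = 4 batches). Ptch1 was detected in 52.7% (43.0% to 62.2%) of Lum-positive and 25.4% (18.3% to 33.6%) of other cells. The transducers Smo (-0.19), Sufu (-0.50) and Gli3 (-0.44) and the co-receptors Boc (0.20), Cdon (-0.02) and Gas1 (-0.22) were not counted, nor was Gli2 (1.06), which was lower in batch 2. Gli1, another target, missed the limit on detection and had counts in 9 Lum-positive cells and 1 other cell. Of the ligands, Shh and Dhh had no count in a mesenchymal cell and Ihh was found in 0.893% of the Lum-positive cells, which is 1 cell.

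In the Wnt list 4 of 21 genes were lower and 1 was higher (median -0.09). For Wif1 and Nkd1 the other cells were not alike. The 53 of them with Col8a1 at 100 CPM or more had 378 CPM of Wif1 and 81.9 CPM of Nkd1, below the Lum-positive cells (531 and 114 CPM), and the 81 with less Col8a1 had 1716 and 379.5 CPM. Axin2 had 42.6 CPM in the former and 148 CPM in the latter, both above the Lum-positive cells. Axin2, a negative-feedback target of canonical Wnt signalling, had the lowest difference among the genes named by the rule. The means of Axin2 were 22.2, 12.2, 26.1 and 32.2 CPM in batches 5, 2, 4 and 6 of the Lum-positive cells and 154, 14.7, 88.9 and 83.2 CPM in the other cells, a difference of -2.14 ± 1.03. In batch 2 the 2 groups were close. Nkd1, also a feedback inhibitor and Wnt target, had 196, 34.4, 73.7 and 78.6 CPM against 339, 63.5, 496 and 151 CPM (-1.20 ± 0.94). Wif1, a secreted protein that binds Wnt ligands, had 935, 172, 257 and 363 CPM against 1768, 232, 1254 and 700.5 CPM (-1.16 ± 0.80). The ligand gene Wnt16 was lower, at 5.17 against 35.1 CPM, and was detected in 2.68% and 11.2% of the cells.

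The 1 gene of the Wnt list that was higher was Gpc3, whose product glypican-3 is a cell-surface heparan sulfate proteoglycan that binds Wnt and hedgehog ligands. Gpc3 had 116, 408, 39.8 and 129 CPM in batches 5, 2, 4 and 6 of the Lum-positive cells and 27.0, 67.6, 0 and 33.7 CPM in the others (2.43 over all cells). Wnt5a, a ligand of the non-canonical branch with counts in 96.4% and 90.3% of the cells, differed by 0.33 ± 0.35. The antagonist genes Frzb (-0.36) and Sfrp4 (0.03) and the target Lef1 (0.15) were not counted.

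In the insulin-like growth factor list 3 of 9 genes were higher and none was lower (median 0.19). Igf2, a growth factor gene, had 180.3, 659, 291 and 537 CPM in batches 5, 2, 4 and 6 of the Lum-positive cells and 45.7, 78.1, 44.9 and 150.3 CPM in the others, a difference of 2.35 ± 0.59, with the smallest spread over the batches among the 12 highest genes. Igf1 had 139, 519.9, 174 and 188 CPM against 51.3, 50.2, 18.7 and 110.2 CPM, a difference of 1.91 ± 1.27. Igfbp7, which encodes a secreted binding protein, was higher as well (98.3 against 34.1 CPM, SD 1.08 on the log2 scale). Igfbp4 (0.19) and Igfbp2 (-0.09), with counts in over 90% of the cells of both groups, were not counted, nor was the receptor gene Igf1r (-1.42), which was higher in batch 2 and lower in the others.

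In the FGF list 3 of 12 genes were higher and none lower, although the median of the list was -0.26. These were the receptor gene Fgfr2 (1.27 ± 0.93), Spry4, a feedback inhibitor induced by the pathway (1.40 ± 1.28), and Etv5, a transcription factor gene downstream of the receptors (1.03 ± 2.98), whose batch values ranged from 0.41 to 6.72. Etv4 was detected in 10.7% against 1.49% of the cells, but had no count in batch 4. In the TGFβ and BMP list 1 of 21 genes was lower and none higher (median -0.05), beside 2.27% and 2.24% over all genes. This was Bmp7, a BMP ligand gene, with 98.0 against 223 CPM and a difference of -1.17 ± 0.45 that held in each batch.

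Among receptors and ligands of neurons and axons, 2 of 16 genes were higher and 1 was lower (median 0.07). Musk, a receptor tyrosine kinase known from the neuromuscular junction, had 134, 524, 590.2 and 388 CPM in batches 5, 2, 4 and 6 of the Lum-positive cells and 69.2, 74.8, 94.2 and 112 CPM in the others, or 339 against 84.2 CPM over all cells (SD 0.86 on the log2 scale). Robo2, a receptor for Slit ligands, was higher (1.15 ± 1.70), and Efna5, an ephrin ligand gene, was lower (-1.32 ± 2.20). In the list of hormone precursors and proteases, Gcg and Ece1, the endothelin-converting enzyme (148 against 56.8 CPM, 1.37 ± 0.92), were higher of 6 measured genes (median 0.73). Cpm, a membrane carboxypeptidase, had 204 against 119.6 CPM, a difference of 0.77 ± 0.66 that stayed under the limit.

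Among the lists of collagens, basement membrane and collagen processing, no gene was counted of 7 fibrillar collagens (median 0.25), 6 fibril-associated collagens (-0.36), 6 other collagens (0.42), 14 basement membrane genes (0.07) and 19 genes of collagen processing (0.08). Over all genes 2.24% were higher and 2.27% lower. Col3a1 had 2484 against 1576 CPM (0.66 ± 0.37), Col2a1 had 4311 against 6719 CPM (-0.64 ± 0.45) and Col9a1 had 6446 against 8093 CPM (-0.33 ± 0.17). Of the small leucine-rich proteoglycans, with Lum and Dcn left out because the rule used them, Tsku was higher of 8 measured genes (median -0.20), and biglycan (Bgn, -0.24), fibromodulin (Fmod, -0.18) and osteoglycin (Ogn, -0.13) were not counted. Kera, the neighbour of Lum on chromosome 10, had no count in a mesenchymal cell, and Epyc, the next gene, was found in 1 Lum-positive cell.

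Dcn, which is one of the rule's genes and also a neighbour of Lum, had 3819, 14385, 9583 and 10168 CPM in batches 5, 2, 4 and 6 of the Lum-positive cells against 1011, 3964, 1687 and 3595 CPM in the others. The values of the other genes of the rule were 3102 against 6952 CPM for Coch, 11086 against 15461 CPM for Otor, 25168 against 27692 CPM for Car3 and 4411 against 4231 CPM for Col1a2. These are descriptions, since the genes took part in choosing the cells.

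Elastic fibre genes held 2 lower genes of 12, Ltbp3 (-1.06 ± 0.40), a latent TGFβ binding protein, and Fbln1 (-1.02 ± 1.04), a fibulin, with a median of -0.38 and none higher. Of 14 proteases and inhibitors, the gelatinase gene Mmp9 was higher (47.7 against 10.3 CPM, 2.10 ± 1.93) and the metalloprotease inhibitor gene Timp3 was lower (154 against 310.2 CPM, -1.01 ± 0.56), with a list median of 0.56. The retinoid list held 1 higher gene of 9, Rarres2, the precursor of the chemoattractant chemerin (1.29 ± 0.63, median -0.52). Of 6 chemokine and complement genes Cxcl16 was higher (1.10 ± 3.84, with 0.19 in batch 2, median 0.33), and Cxcl12 had 683 against 315 CPM but differed by -0.06 in batch 4. The transcription factors of periotic mesenchyme held 1 lower gene of 19, Six2 (-1.47 ± 1.83, median -0.16), and Pou3f4 (-0.21) and Tbx18 (-0.16) were not counted. Lists with 1 counted gene in a direction are too short to be told from the shares over all genes (2.24% higher, 2.27% lower).

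No gene was counted in the lists of inner ear fibrocyte and ion transport (17 measured, median 0.01), pleiotrophin and midkine (8, 0.22), cartilage (7, -0.08), tendon (7, 0.03), general fibroblasts (7, 0.37) and immediate early genes (15, -0.00). In all, 11 of 25 lists with at least 5 measured genes held no counted gene. These 11 lists held 113 measured genes, beside shares of 2.24% higher and 2.27% lower over all genes. Lists this short can hold no counted gene at such shares, so this is no result about them. Of the cell cycle list 1 gene, Pcna, could be measured (0.29).

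**Figure D2:**
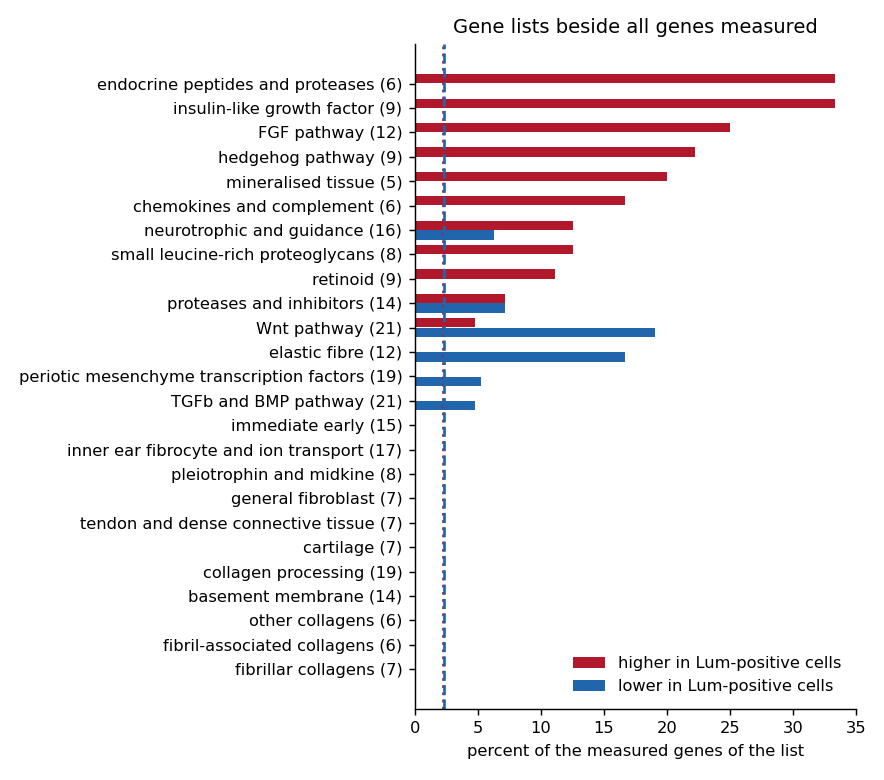
Share of the measured genes of each list, in percent, that were higher (red) or lower (blue) in Lum-positive than in other mesenchymal cells, with the number measured in brackets. The dotted and dashed lines are the shares over all 8224 genes, 2.24% and 2.27%. Lists with few genes reach high shares from 1 or 2 genes.

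By fold, the 12 highest genes of the naming rule were, after Gcg, Hpca, Fgl2, Pcp4l1, Tsku, Dmp1, Gpc3, Igf2, Stxbp6, Rnf122, Musk and Igf1. Hpca, a neuronal calcium sensor, had 60.2 against 2.77 CPM (4.02 ± 1.08). Fgl2, a fibrinogen-like secreted protein, had 101 against 6.75 CPM (3.72 ± 2.39). Pcp4l1, a small calmodulin-binding protein of the PCP4 family, had 126 against 10.5 CPM (3.47 ± 2.42). Hpca, Fgl2 and Pcp4l1 were found in 28.6%, 29.5% and 29.5% of the Lum-positive cells and in 1.49%, 2.99% and 3.73% of the others. Tsku, the proteoglycan tsukushi, had 43.9 against 5.48 CPM (2.79 ± 1.42). It was detected in similar shares of the cells, 33.9% and 28.4%, and reached 100 CPM in 13 Lum-positive and 2 other cells. Stxbp6, which binds SNARE proteins, differed by 0.40 in the P4 batch and by 5.53 to 6.58 in the P6 batches, and Rnf122, a ubiquitin ligase gene, by 6.02 in batch 4 and by 1.35 to 1.79 in the others.

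The 12 lowest genes were, after Axin2, Numb, Gatd1, Cpd, Irak1, 9330162G02Rik, Zranb1, Lpin2, Cntnap4, Stag1, Ctdsp2 and Tcf12. Numb, an endocytic adaptor that limits Notch signalling, had 11.9 against 52.9 CPM (-2.07 ± 1.09). Cpd, a carboxypeptidase, had 45.2 against 169 CPM (-1.88 ± 1.32), and Cntnap4, a neurexin-related adhesion molecule, had 54.9 against 169 CPM (-1.60 ± 0.77). Tcf12, a basic helix-loop-helix factor, had 48.3 against 132 CPM (-1.43 ± 0.57). The other 7, from Gatd1 to Ctdsp2, lay between -1.93 and -1.57. Irak1 and 9330162G02Rik had means of 7.17 and 5.96 CPM in the Lum-positive cells, where a few reads decide the value. When log2(CPM + 1) was averaged over cells in place of CPM, Numb, Gatd1, Irak1, 9330162G02Rik, Zranb1, Lpin2 and Stag1 were no longer counted, nor was Tsku among the 12 highest.

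**Figure D3:**
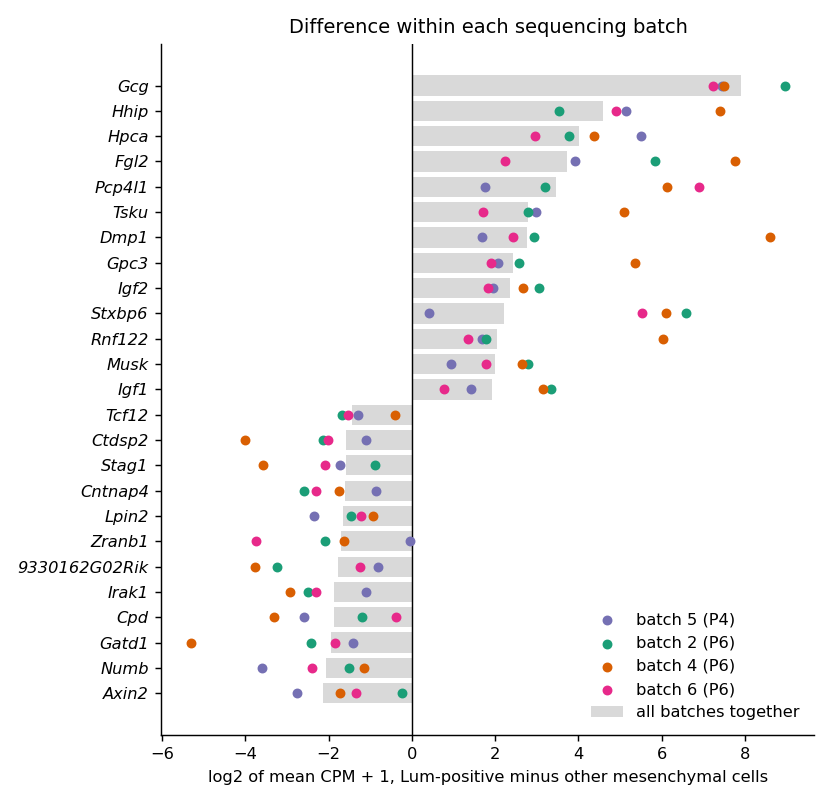
Log2 difference of mean CPM + 1, Lum-positive minus other mesenchymal cells, for Hhip and the 24 genes named by the rule. Grey bars are all cells together and points the 4 batches. Points of a gene lie on 1 side of 0 by construction, and where a group had no count in a batch the point depends on the added 1 CPM and is no bound, as for Gcg in every batch.

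The lists that the study drew from these cells for its mesenchymal subclusters are not independent evidence, because they were chosen on the same cells. Of the S2 genes, 4 of 5 measured genes outside the rule were higher, namely Gpc3, Dmp1, Gcg and Hhip, and Cpm was not counted. Of 7 S0 genes 2 were lower, Wif1 and Abhd2, a lipase (223 against 509 CPM, -1.19 ± 0.72), with a median of -0.96. Of 8 S1 genes none was counted (median -0.36). Col8a1, the collagen gene of S1, reached 100 CPM in 32 Lum-positive cells (28.6%, 20.4% to 37.9%) and 53 other cells (39.6%, 31.2% to 48.4%), so Lum and Col8a1 were not exclusive of each other.

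The Lum-positive cells were not uniform. Ordered by Lum and split into 4 groups of 28 cells, the lowest group held 129 to 489.6 CPM of Lum and the highest 3907 to 24428 CPM. Gcg reached 100 CPM in 0, 2, 6 and 20 cells of the groups from lowest to highest, Dmp1 in 2, 3, 7 and 19, and Hhip in 0, 2, 5 and 12. Gpc3 did so in 1, 4, 9 and 19 cells and Igf1 in 6, 5, 13 and 20. Most of the marker-bearing cells thus stood in the highest group. Mean Dmp1 there was 1208 CPM, against 16.7 CPM in the lowest group and 62.3 CPM in the other mesenchymal cells.

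Other genes took the opposite course. Wif1 had means of 1124, 664, 268 and 65.9 CPM from the lowest to the highest group, with 1187 CPM in the other cells. Coch had 5822, 3698, 2492 and 396 CPM against 6952 CPM, and Ablim1, an actin-binding gene, had 355, 272, 89.5 and 0 CPM against 385 CPM. Nkd1, Bmp7 and the gap junction gene Gja1 had 233, 226 and 361 CPM in the lowest and 23.2, 18.6 and 29.9 CPM in the highest group. The other mesenchymal cells had 262 CPM of Nkd1, 223 CPM of Bmp7 and 314 CPM of Gja1, but these means mix unlike cells. The 53 with Col8a1 at 100 CPM or more had 81.9 CPM of Nkd1, 195 CPM of Bmp7 and 644 CPM of Gja1. The 81 with less Col8a1 had 379.5, 240 and 98.2 CPM. The lowest group lay between these values, and for Nkd1 and Gja1 it was near neither. Otor stayed near 13475 to 13981 CPM in the first 3 groups and was 3228 CPM in the highest.

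**Figure D4:**
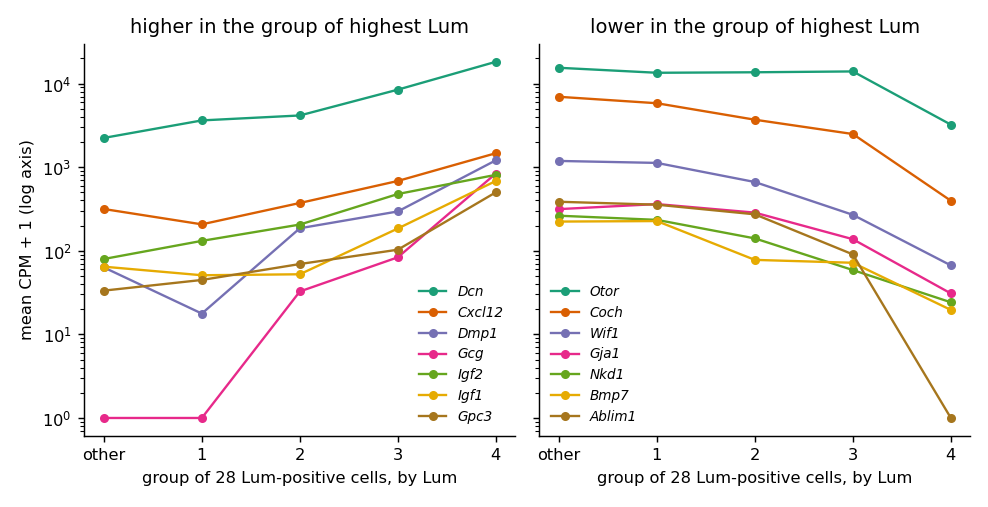
Mean CPM + 1 on a log axis in the other mesenchymal cells and in the 4 groups of 28 Lum-positive cells, from lowest (1) to highest Lum (4). Left, genes with the highest mean in the group of highest Lum. Right, genes with the lowest mean there. The heights of different genes are not comparable, because CPM is not corrected for gene length.

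The highest group held 14 cells of batch 2, 2 of batch 4, 9 of batch 6 and 3 of the P4 batch, and its median mitochondrial share was 3.56% against 1.47% in the lowest group, so batch and age moved with Lum. The comparison was therefore repeated within each batch, between the cells above and those at or below its own median of Lum. Gcg had 356 against 0 CPM in the P4 batch, 946 against 77.7 CPM in batch 2, 359 against 0 CPM in batch 4 and 246 against 52.1 CPM in batch 6. Coch had 2608 against 5207, 209 against 5027, 885 against 4175 and 1297 against 3700.3 CPM in the same order, and Wif1 had 564 against 1289, 0 against 331, 0 against 515 and 151 against 575 CPM. Gcg, Coch and Wif1 kept their direction within each of the 4 batches, as did Igf1, Ablim1, Nkd1 and Bmp7. Lum chose the cells and made this split. Gcg, Igf1, Coch and Ablim1 also stand at the ends of the ranking by correlation with Lum below. Their directions are therefore descriptions of the same cells. Dmp1 did so in 3 batches, at 349 against 9.31 CPM in the P4 batch, 1893 against 156 CPM in batch 2 and 569 against 112 CPM in batch 6, but not in batch 4, at 99.5 against 673 CPM in 5 cells each. Hhip turned in batches 4 (89.9 against 246 CPM) and 6 (78.3 against 97.1 CPM), Gpc3 in batch 4 (1.06 against 78.5 CPM), Gja1 in batch 5 (263 against 112 CPM) and Otor in batches 4 (9250.2 against 7134 CPM) and 6 (10179.9 against 7828 CPM).

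Ranked by Spearman correlation with Lum over the 112 cells among 3809 genes, the nearest genes were Dcn (0.68), Gcg (0.66), Hpca (0.59), Dmp1 (0.54), Igf1 (0.53) and Apod (0.53), the lipocalin apolipoprotein D. The farthest were Coch (-0.65), Ablim1 (-0.52) and Otor (-0.51). Within batches the values ran from 0.31 to 0.74 for Dcn, from 0.44 to 0.78 for Gcg and from -0.77 to -0.49 for Coch. For Otor they ran from -0.70 to -0.09. Lum chose the cells, and Dcn, Coch and Otor are genes of the same rule. The cells share pools of mice and sequencing batches, so these are descriptions of the cells at hand.

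The largest shares of the reads of the Lum-positive cells went to CT010467.1 (7.98%, against 8.81% in the other cells), a locus named by its clone, Car3 (2.52% against 2.77%), Ptgds (1.65% against 1.04%), the mitochondrial ribosomal RNA mt-Rnr2 (1.13% in both), Otor (1.11% against 1.55%), Apoe (1.05% against 1.13%), Dcn (0.86% against 0.22%) and AY036118 (0.84% against 1.09%). Lum itself took 0.355%. Ptgds encodes the prostaglandin D synthase of many barrier mesenchymes and Apoe a lipid carrier.

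To see how the Lum-positive cells differed by age, the 69 cells of P6 were set beside the 43 cells of P4. A gene was counted when its mean CPM + 1 differed at least 2-fold and each of the 3 P6 batches lay on the same side of the P4 mean. Of 8740 genes 519 were higher at P6 (5.94%) and 1094 lower (12.5%), with a median log2 difference of -0.09. With scran size factors the split was 654 higher and 875 lower, with a median of 0.03. In the other mesenchymal cells 530 genes were higher (6.4%) and 1133 lower (13.7%) of 8279, with a median of -0.12. Whether the groups differed in their age response was not tested.

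Some of the genes that marked the Lum-positive cells were higher at P6, where their mean Lum was also higher (4919 against 1352 CPM). Dmp1 rose from 175 to 582 CPM, Hhip from 34.0 to 144 CPM and Musk from 134 to 467 CPM. Igf2 rose from 180.3 to 545 CPM and Igf1 from 139 to 306 CPM. All of these genes were counted as higher at P6. In the other cells Dmp1 went from 53.7 to 69.9 CPM, Hhip from 0 to 6.15 CPM and Musk from 69.2 to 97.4 CPM. Igf2 went there from 45.7 to 108 CPM and Igf1 from 51.3 to 74.4 CPM. None was counted in the other cells, Hhip because it missed the limit on detection. Igf2 passed the limit on fold there, but its batch 4 mean lay below the P4 mean. Gcg had 174 CPM at P4 and 278 CPM at P6 and Gpc3 116 and 217 CPM. Neither was counted, because both missed the limit on fold. In addition, batch 6 lay below the P4 mean for Gcg and batch 4 for Gpc3. Wif1 fell from 935 to 278 CPM and Nkd1 from 196 to 61.9 CPM. In the other cells Wif1 had 1768 and 671 CPM and Nkd1 339 and 193 CPM. Axin2 stayed at 22.2 and 24.1 CPM in the Lum-positive cells, and had 154 and 64.0 CPM in the others. Tsku, also a marking gene, did not rise in each P6 batch. Above and at or below the batch median of Lum it had 79.3 and 69.3 CPM in the P4 batch. In batch 2 it had 5.36 and 16.3 CPM, in batch 4 91.1 and 83.5 CPM, and in batch 6 6.24 and 27.6 CPM. Means by age are not given for Tsku, Hpca, Fgl2, Pcp4l1, Stxbp6 and Rnf122.

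Of the genes named for age, the 8 highest at P6 were Ryr3, Ptgds, Smpd3, Cnmd, Sfrp4, Slc13a3, Tnfrsf11b and Cemip. Ptgds rose from 2548 CPM at P4 to 19266, 35876 and 26540.5 CPM in the P6 batches 2, 4 and 6, a log2 difference of 3.31, and in the other cells by 4.92. Cnmd, the cartilage protein chondromodulin, rose from 51.5 to 489.9 CPM, Sfrp4, a secreted Wnt antagonist, from 28.6 to 274 CPM and Cemip, a hyaluronan-degrading protein, from 105 to 905 CPM. Tnfrsf11b, the decoy receptor osteoprotegerin, rose from 18.3 to 172 CPM and Ryr3, a calcium release channel, from 2.42 to 69.4 CPM. Of these 8 genes 7 were also counted as higher at P6 in the other mesenchymal cells, and Ryr3 was not (1.52).

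The 8 lowest at P6 were Anks1b, Sbf1, Gm9780, AI593442, Dtx4, Smarcd1, Kat2a and Pde1c. Anks1b, a postsynaptic scaffold gene, had 84.7 CPM at P4 and 5.67, 0 and 0 CPM in the P6 batches, and Kat2a, a histone acetyltransferase gene, had 79.5 CPM at P4 and 9.72 CPM at P6. In the other cells Gm9780 alone of these 8 was counted as lower, and Kat2a was counted as higher, from 13.1 to 31.8 CPM. 

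**Figure D5:**
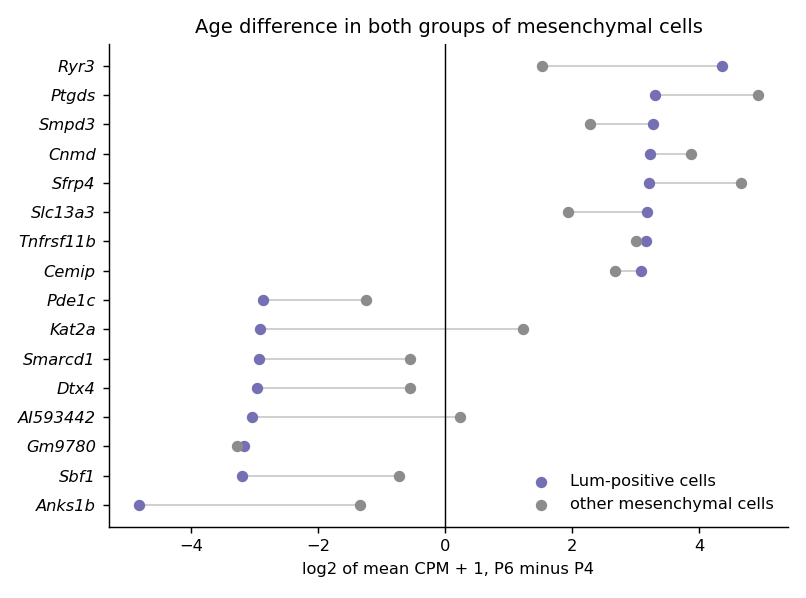
Log2 difference of mean CPM + 1, P6 minus P4, for the 16 genes named by the age rule, in Lum-positive cells (violet, on which the genes were chosen) and in the other mesenchymal cells (grey). The 8 genes higher at P6 lie right of 0 in both groups, and AI593442 and Kat2a lie on opposite sides of 0.

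Sex-linked genes differed between the groups in some batches. Xist, the RNA of the inactive X chromosome, was chosen after its values were seen and had 182 against 485 CPM in Lum-positive and other cells (-1.41 ± 0.65), being lower in each batch. A count of Xist was found in 55 of 112 Lum-positive cells (49.1%, 39.5% to 58.7%) and 92 of 134 other cells (68.7%, 60.1% to 76.4%), and a count of any of 4 Y-linked genes in 28 (25%, 17.3% to 34.1%) and 20 (14.9%, 9.36% to 22.1%). By batch, Xist was found in 12% of Lum-positive and 14.3% of other cells in batch 2, in 60% and 85.7% in batch 4, in 48.8% and 79.4% in the P4 batch and in 73.5% and 75% in batch 6, so that batches 2 and 6 were nearly equal. Y-linked counts were found in 72% and 61.9% in batch 2, in 0% and 7.14% in batch 4, in 23.3% and 9.52% in the P4 batch and in no cell of batch 6. Lum-positive cells were 38.2% (30.2% to 46.7%) of 144 mesenchymal cells with Xist and no Y-linked count, and 58.3% (43.2% to 72.4%) of 48 with a Y-linked count, of which batch 2 gave most. Among the cells with Xist and no Y-linked count alone, the 24 named genes kept their direction and 17 of them were still counted, and among the cells with a Y-linked count, which came from batches 2 and 5, 11 of 24 were. The sex of the pooled mice is not given per cell, and its part in the differences was not tested beyond this.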

How the data were processed

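The authors aligned the reads to GRCm38 (mm10) with STAR and quantified them with RSEM, and deposited the resulting expected counts per gene and cell, not normalized (an expected count is an estimated count that need not be whole). Smart-seq2 reads carry no molecular identifiers and cover whole transcripts, so intervals cover counting error only and CPM values of different genes are not comparable.

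Cells with at least 120000 reads, 950 genes and at most 10% mitochondrial reads were kept, which left 1007 of 1155. Counts were scaled to CPM over all rows, from which the 92 spike-in rows were not removed (at most 0.000402% of the reads of a mesenchymal cell). No doublet caller was run, and the study gated cells by size against doublets. Mean CPM + 1 was compared on the log2 scale. Named genes were, per direction, the 12 (for age, 8) largest log2 differences among counted genes with at least 20 CPM and a count in 25% of the cells of the higher group, together with the given markers and members of the gene lists. Genes of the rule that chose the cells were left out of the counts of the gene lists. The 12 deposited samples could not be tied to cells, so no test was made. Members and lists were chosen with earlier results of these data known. Python 3.11.15, numpy 2.4.6, pandas 2.3.3, scipy 1.17.1, R 4.3.3 and scran 1.30.0 were used. The comparison was also run on simulated counts with known folds. Those counts held no batch differences and no subgroups of cells, so they cannot show how the rule does with either.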

Additional observations from a re-analysis of the deposited data

Results flagged for a closer look

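In 3 cases, single-batch values of the named genes stood apart from the other 3 batches, by a gap that exceeded Dixon's 95% critical value, which chance passes in about 1 group in 20. Such gaps were looked for in the 24 named genes, Hhip, the share of Lum-positive cells and their mean Lum. The log2 difference of Gcg was 8.95 in batch 2, where the other cells had no count and the value depends on the added 1 CPM. That of Stxbp6 was 0.40 in the P4 batch, and that of Rnf122 was 6.02 in batch 4, the batch with 10 Lum-positive cells. In the epithelial dissection, which the comparisons do not use, 2 of 632 cells (0.316%, exact interval 0.0383% to 1.14%) had Lum at 100 CPM or more, at 419.8 and 1754 CPM, of which 1 met the mesenchymal gene rule and 1 had the epithelial gene Epcam at 100 CPM or more. What sets these values apart was not tested.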

How the results depend on the processing

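A pseudocount of 10 CPM left 100 genes higher and 99 lower in Lum-positive cells and 647 lower at P6. Without the detection filter 318 were lower and 2741 lower at P6. With the mean of log2(CPM + 1) many of the counted genes were different ones. Of 170 higher genes 54 were among the 184, of 47 lower 25 among the 187, of 244 higher at P6 132 among the 519 and of 727 lower at P6 313 among the 1094, and 16 of the 24 named genes were still counted. Leaving out each batch in turn gave 296 to 530 genes higher, 326 to 456 lower, 681 to 892 higher at P6 and 1219 to 1684 lower at P6, where fewer batches had to hold the sign, and shares of Lum-positive cells of 43.5% to 49.3%. P6 cells alone gave 530 higher and 456 lower. Mean Lum ranged from 2133 CPM (without batch 2) to 4919 CPM (without batch 5). A Lum limit of 500 CPM gave a share of 34.1%. Cells with a Y-linked count alone, chosen after seeing the data, gave 1527 higher and 1076 lower. The named genes kept their sign under these settings, whereas the median over all genes went from -0.01 to 0.01 with scran and to 0.08 with the mean of log2(CPM + 1), and for age from -0.09 to 0.03 with scran. Over all settings, 421 of 456 values of the 24 genes named against the other cells were still counted, as were 240 of 240 for age. Some settings could hardly change these totals. No mesenchymal cell had Lum between 50 and 100 CPM, so a limit of 50 CPM chose the same cells. Dropping the detection filter could not undo detection, and leaving out a batch could not undo a shared sign. Leaving out a batch could still change detection and fold. The genes were also chosen as the largest counted differences, so the totals are descriptions. Without batch 5 no age value exists. No paired analysis was possible because the cells carry no replicate number, and the differences within batches are values with no test.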
